A study of Homo sapiens with 12 samples.

Results

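The genes described here were CAMK2D, CAMK2G, CD44, SRC, YES1, EZH2, EED and SUZ12, 8 of the 19225 genes in the deposited read count table. They were chosen by symbol, with earlier results of these data known but no measured value in the rule, as the kinases, surface receptor and chromatin enzymes that work in squamous carcinoma places downstream of the loss of FAT1, a very large cadherin of the cell surface. All 8 had enough counts to be tested, with between 273 and 41300 reads per library (CAMK2D and CD44, respectively).

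The libraries came from HN6 and HN30, established human cell lines of oral squamous cell carcinoma (OSCC) that were grown in culture. Cells of each line were transfected with a scrambled control siRNA (NC) or with siFAT1-1 or siFAT1-2, each a small interfering RNA against FAT1, and RNA was taken 24 h later. Each of the 6 conditions was done at 2 separate times, called repeat 1 and repeat 2, which gave 12 libraries: 4 of NC and 8 with FAT1 knocked down (FAT1 KD, 4 for each siRNA). The sample titles call the knockdown arms sh1 and sh2, whereas their descriptions and the methods speak of siRNA. The knockdown was transient and the cell pools were lines in culture. The p-values below therefore measure the spread between libraries of these lines and not between tumours. For KD against NC that spread takes in the difference between the siRNAs as well as that between repeats. In fits of both lines it also takes in any difference in response between the lines that the fit has no term for.

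CaMKII (here CAMK2D and CAMK2G, the delta and gamma chains, which are the forms found widely outside the nervous system) is a serine/threonine kinase that calcium-bound calmodulin switches on. CD44 is the main cell-surface receptor for the matrix sugar hyaluronan and a common marker of stem-like carcinoma cells, and SRC and YES1 are tyrosine kinases held under the membrane that pass signals from adhesions and growth factor receptors. EZH2, EED and SUZ12 form the core of Polycomb repressive complex 2 (PRC2), which silences genes by methylating histone H3, and in squamous carcinoma the chain has been drawn from FAT1 loss through CaMKII to CD44, SRC and YAP1 on the one side and to EZH2 and the stem cell factor SOX2 on the other. Much of that chain works through phosphorylation and histone methylation, neither of which a count of mRNA reads measures.

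Total counts ran from 26430049 to 47639010 per library. FAT1 itself was lower in every knockdown library than in the NC libraries of its line: in HN6 it was at 56.8 and 66.8 CPM (read counts scaled to library size, with edgeR's TMM factors) with NC, at 7.6 and 13.5 CPM with siFAT1-1 and at 13.2 and 21.4 CPM with siFAT1-2, and in HN30 at 13.6 and 14.8, 4.85 and 6.25, and 10.8 and 7.75 CPM. Over both lines the log2 fold change of FAT1 in KD against NC was -1.59 (SE 0.31, adjusted p = 0.0413 in the quasi-likelihood test of edgeR, adjusted by Benjamini-Hochberg). With the repeat as a block it was -1.62, with an adjusted p of 0.0783, and it kept an adjusted p under 0.05 in 7 of 21 alternative analyses. With any single library other than HN30 siFAT1-2 repeat 1 left out, the adjusted p of FAT1 was 0.0534 or more, although its log2 fold change stayed between -1.77 and -1.39. siFAT1-1 alone gave a 4-fold lower level (interval of the log2 fold change -2.69 to -1.31, adjusted p = 0.00652) and siFAT1-2 alone a log2 fold change of -1.27 (adjusted p = 0.0237). The repeats of HN6 NC stood further apart than those of any other condition, with 23.7% of genes past a log2 difference of 1 against 4.85% to 19.6% elsewhere, and results that rest on HN6 NC repeat 2 are given with and without it below. The squamous markers KRT5, TP63, CDH1 and EPCAM were at 27.6 CPM or more in every library, and KRT14 lay between 0 and 2.43 CPM. The leukocyte markers PTPRC and CD3E and the endothelial marker PECAM1 stayed at or under 0.35 CPM. CDH5 and VWF, also endothelial, reached 6.52 and 1.53 CPM, and CD68 (16.1 to 121 CPM) and CD14 (2.07 to 15 CPM) were present throughout. Of 6 fibroblast markers, only COL1A1 (11.1 to 146 CPM) was at 1 CPM or more in every library. COL3A1 and DCN stayed at or under 0.808 CPM, and COL1A2 reached 4.43, PDGFRB 9.35 and LUM 13.7 CPM. In bulk RNA, fewer cells that make a transcript and less transcript per cell cannot be told apart.

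The first question was whether any gene of the axis changed its mRNA level when FAT1 was knocked down, with both siRNAs and both lines pooled. None of the 8 passed an adjusted p of 0.05 by edgeR (0 of 8, beside 0.522% of all 14360 genes tested), and limma-voom and DESeq2 also called 0 of the 8. At an unadjusted P under 0.05 the count was again 0 of 8, where 14.2% of all genes passed (6.62% higher and 7.6% lower in KD). By the thresholds the study used, an unadjusted P under 0.05 with an absolute log2 fold change above 1, it was 0 of 8 beside 3.2% of genes. For none of the 8 did all knockdown libraries lie on the same side of all NC libraries in both lines, which 5.29% of genes did. The median log2 fold change of the 8 was -0.02 (0.02 over all genes), with 4 genes above 0 and 4 below, and the median absolute value was 0.19 (0.29 over all genes).

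**Figure D1:**
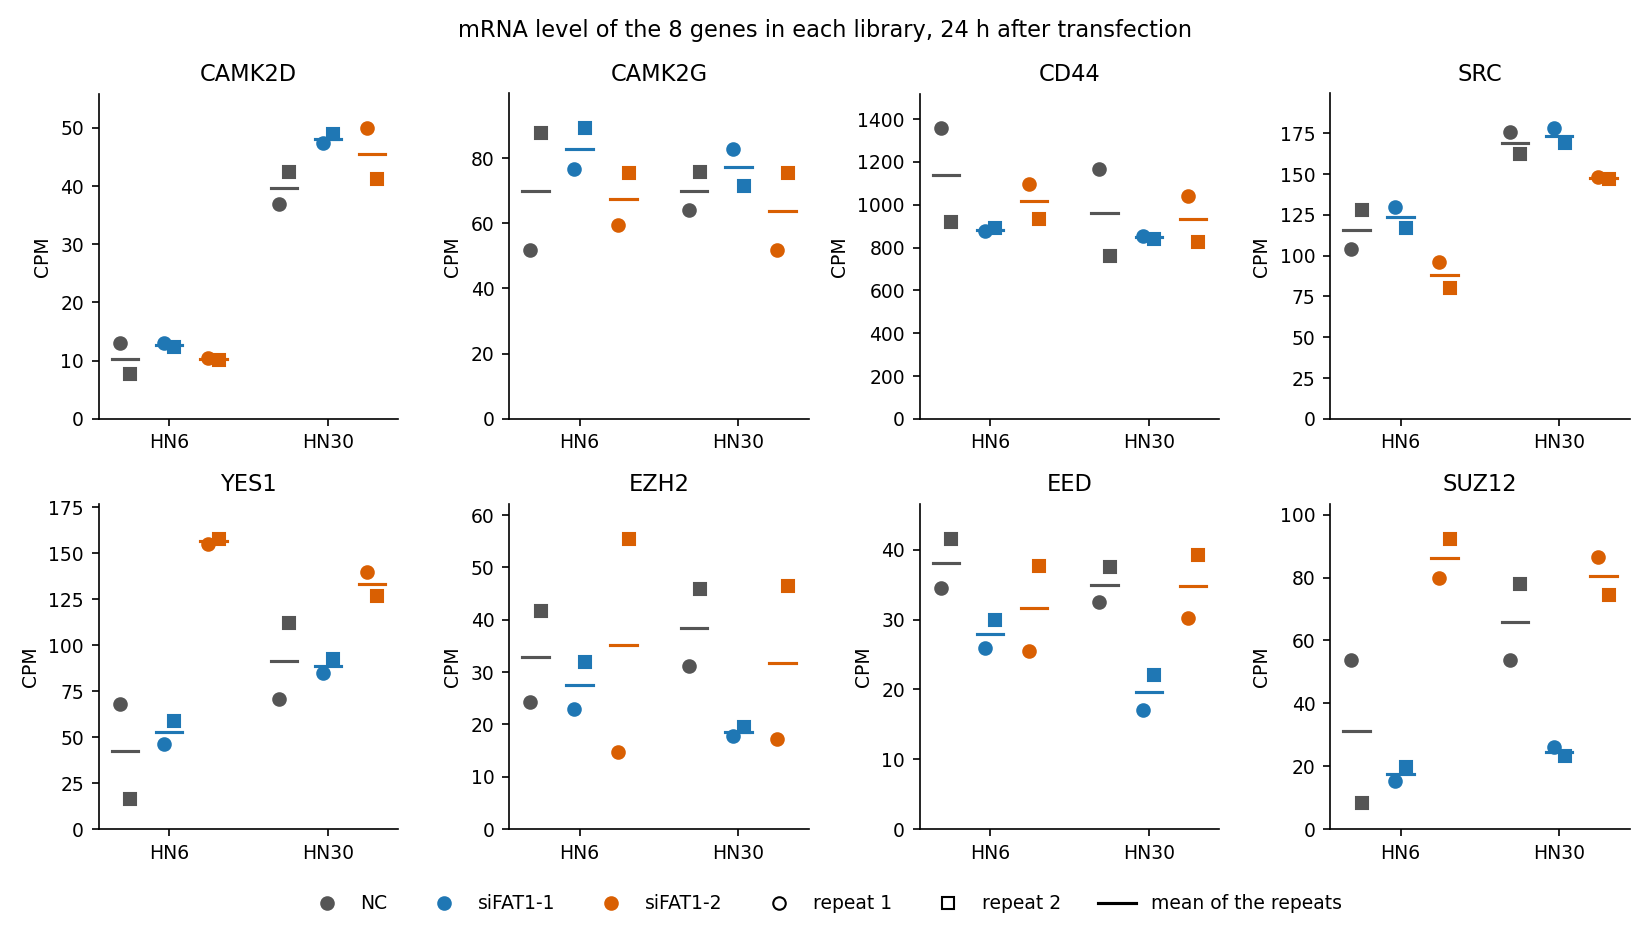
CPM (read counts scaled to library size, linear axis from 0) of the 8 genes in each of the 12 libraries, by cell line and siRNA; circles are repeat 1, squares repeat 2 and bars the mean of both. SUZ12 lay between 74.4 and 92.4 CPM in the 4 siFAT1-2 libraries and between 15.2 and 26.1 CPM in the 4 siFAT1-1 libraries, while the NC libraries ran from 8.46 to 78 CPM.

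CAMK2D and CAMK2G did not pass the test in either direction. CAMK2D in HN6 was at 13 and 7.7 CPM with NC (repeats 1 and 2), at 13.1 and 12.3 CPM with siFAT1-1 and at 10.4 and 10.1 CPM with siFAT1-2. In HN30 it was at 36.9 and 42.4, 47.4 and 48.9, and 49.9 and 41.2 CPM, respectively. In HN6 both knockdown arms overlapped with NC, whereas in HN30 the siFAT1-1 values lay above both NC values. The log2 fold change of CAMK2D in KD against NC was 0.19, with a 95% confidence interval of -0.18 to 0.57 (adjusted p = 0.637).

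The difference that stood out for CAMK2D was between the lines. Every HN30 library held more of it than every HN6 library, and the level was 4.01-fold higher in HN30 (log2 difference 2.00, SE 0.15, adjusted p = 6.38e-07). CAMK2G showed no such step: it ran from 51.9 to 89.1 CPM in HN6 and from 51.9 to 82.9 CPM in HN30, with a log2 difference of -0.06 between the lines (interval -0.40 to 0.28). After FAT1 KD the log2 fold change of CAMK2G was 0.06 (interval -0.34 to 0.45, adjusted p = 0.914). Its lowest values, 51.9 CPM each, were in HN6 NC repeat 1 and in HN30 siFAT1-2 repeat 1, so they fell in different arms of the experiment.

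Of 16 tested companions in calcium signalling (calmodulins, other calmodulin kinases, calcineurin chains and the CaMKII inhibitors), 1 was lower and 0 were higher at an unadjusted P under 0.05, 0 passed after adjustment, and the median log2 fold change was -0.11. For this list and those below, the shares over all genes tested were 6.62% higher, 7.6% lower and 0.522% after adjustment. The lower gene of the 16 was PPP3CB, a catalytic chain of the calcium-dependent phosphatase calcineurin, at -0.73 (SE 0.16, adjusted p = 0.0728). CAMK4, another calmodulin kinase, had 1.27 (SE 0.62, adjusted p = 0.374). The inhibitor gene CAMK2N1 had -0.20 (SE 0.26, adjusted p = 0.757).

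CD44 was the most abundant member. Its 12 values ran from 759 to 1357 CPM, which put its mean level at the 99.4th percentile of the genes tested. Per kilobase of its canonical transcript it had 187 ± 34.3 CPM (SD, n = 6 libraries) in HN6 and 168 ± 28.7 in HN30, the highest of the 8 in both lines. SRC came next, at 23.5 ± 4.19 in HN6 and 35.2 ± 2.89 CPM per kilobase in HN30, and CAMK2D was lowest, at 1.92 ± 0.364 and 7.69 ± 0.877. In HN6 the place of SRC was within the spread of CAMK2G (18.9 ± 3.86) and YES1 (18.2 ± 12.8), and the order of the members between SRC and CAMK2D was not clear beyond the spread in either line. With the merged length of all exons in place of the canonical transcript, YES1 moved ahead of SRC in HN6 and CAMK2D was no longer lowest in HN30.

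In HN6, CD44 was at 1357 and 922 CPM with NC, 876 and 890 CPM with siFAT1-1, and 1097 and 936 CPM with siFAT1-2. In HN30 it was at 1169 and 759, 856 and 841, and 1039 and 825 CPM. In both lines the first NC library was the highest of all. In HN6 the siFAT1-1 values lay below both NC values and siFAT1-2 overlapped with NC, and in HN30 both knockdown arms overlapped with NC. The log2 fold change in KD against NC was -0.19 (SE 0.16, interval -0.53 to 0.15, adjusted p = 0.609), so an effect of FAT1 KD on total CD44 mRNA was not detected, and the interval leaves room for a modest change in either direction. The repeat accounted for 44.8% of the sum of squares of CD44 within the lines, more than NC against KD (12.7%) or siFAT1-1 against siFAT1-2 (9.16%). CD44 is spliced into standard and variant forms, and a count per gene does not separate them.

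Among 21 tested genes of hyaluronan metabolism, CD44 cleavage, cytoskeletal linkage and splicing, 0 were higher and 1 lower at an unadjusted P under 0.05, with a median of 0.03. The lower gene was MMP9, a gelatinase that binds CD44 at the cell surface, at -4.70 (SE 1.06, adjusted p = 0.071). With libraries left out in turn its log2 fold change ran from -5.44 to -2.45. The size of that fall turned on single NC libraries. MMP9 was at 541 CPM in HN6 NC repeat 1 and 59.3 CPM in repeat 2, and at 41.2 and 0.354 CPM in HN30 NC. The HN6 knockdown libraries had 15.7 to 59.1 CPM and those of HN30 had 0 to 0.554 CPM. Both HN6 NC values thus lay above the knockdown values, and HN30 NC repeat 2 lay within them. SPP1, which encodes the CD44 ligand osteopontin, had a log2 fold change of 1.02 (SE 0.52, adjusted p = 0.394), and NF2, the membrane-cytoskeleton protein merlin, had -0.32 (SE 0.18, adjusted p = 0.44).

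SRC varied little and was higher in HN30: its within-line SD of log2 CPM, 0.21, was at the 5.95th percentile of the genes tested. In HN6 it was at 104 and 128 CPM with NC, 130 and 117 CPM with siFAT1-1 and 96.1 and 80.2 CPM with siFAT1-2, and in HN30 at 176 and 162, 178 and 169, and 148 and 147 CPM. The siFAT1-2 values were the lowest in both lines and did not overlap with the others. The siFAT1-1 values lay in or beside the NC range. The line difference was 1.51-fold (log2 0.59, SE 0.11, adjusted p = 0.000568). CAMK2D and SRC were thus 2 of 8 members that differed between the lines after adjustment, beside 56.6% of all genes.

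For SRC, KD against NC gave -0.11 (interval -0.43 to 0.22, adjusted p = 0.778). siFAT1-1 gave 0.06 (interval -0.22 to 0.35) and siFAT1-2 gave -0.30 (interval -0.58 to -0.01, adjusted p = 0.161) in edgeR's test. The difference between the siRNAs was 0.36 (interval 0.07 to 0.64, adjusted p = 0.0795). Within the lines, 59.9% of the sum of squares of SRC lay between the siRNAs and 8.43% between NC and KD (medians over all genes 17.7% and 11%).

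YES1, the closest relative of SRC in the list, was highest with siFAT1-2. In HN6 it was at 68.3 and 16.3 CPM with NC, 46.5 and 58.8 CPM with siFAT1-1, and 155 and 158 CPM with siFAT1-2. In HN30 it was at 70.9 and 112, 84.8 and 92.4, and 140 and 127 CPM. All 4 siFAT1-2 values lay above every other value of their line, whereas siFAT1-1 lay within the range of NC in both. The log2 fold change of siFAT1-2 against NC was 1.24 (SE 0.39, interval 0.39 to 2.09), with an adjusted p of 0.06, and of siFAT1-1 against NC 0.11 (interval -0.71 to 0.93, adjusted p = 0.907). siFAT1-1 against siFAT1-2 gave -1.13 (interval -1.97 to -0.29, adjusted p = 0.0633).

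The 16.3 CPM of HN6 NC repeat 2 stood apart from the other YES1 values, 2.06 log2 units under repeat 1, a gap that 6.97% of genes matched or passed. Without that library the log2 fold change of YES1 with siFAT1-2 was 0.87 and its adjusted p 0.0406, and that of siFAT1-1 against siFAT1-2 was -1.09 with an adjusted p of 0.00519. For both siRNAs together, YES1 had 0.76 (interval -0.18 to 1.70, adjusted p = 0.449) with all libraries. It had 0.40 without HN6 NC repeat 2 and 0.94 without HN6 NC repeat 1.

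Of 14 tested SRC family kinases and regulators, 0 passed after adjustment and the median was 0.02. At an unadjusted P under 0.05, 0 were lower in KD (7.6% of all genes) and 3 were higher (6.62%). These were FRK, a SRC-related kinase of epithelia, at 1.06 (SE 0.29, adjusted p = 0.129), PTPN11, the phosphatase SHP2, at 0.69 (SE 0.20, adjusted p = 0.154), and CBL, a ubiquitin ligase that marks active receptors and kinases for breakdown, at 0.54 (SE 0.23, adjusted p = 0.319). CSK, the kinase that holds SRC and YES1 inactive, had 0.35 (SE 0.24, adjusted p = 0.523).

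Among 16 SRC substrates and focal adhesion partners, 2 were higher and 2 lower at an unadjusted P under 0.05, with a median of 0.10, and PXN passed after adjustment. PXN encodes paxillin, the adhesion scaffold that SRC and focal adhesion kinase phosphorylate. In HN6 it was at 864 and 862 CPM with NC, 534 and 467 CPM with siFAT1-1 and 371 and 519 CPM with siFAT1-2, and in HN30 at 736 and 624, 380 and 425, and 406 and 437 CPM. All 8 knockdown libraries were below the NC libraries of their line, and PXN fell by 0.80 on the log2 scale (SE 0.13, adjusted p = 0.0176), with both siRNAs alike in size (-0.77 and -0.82). Its adjusted p stayed under 0.05 in 16 of 21 alternatives and was 0.143 at the highest. It was 0.0821 without HN6 NC repeat 1, 0.107 without HN30 NC repeat 1 and 0.056 with a correction for GC content. PTK2, the focal adhesion kinase gene, had 0.42 (SE 0.15, adjusted p = 0.219) and ABL1, another tyrosine kinase, -0.48 (SE 0.16, adjusted p = 0.215).

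**Figure D2:**
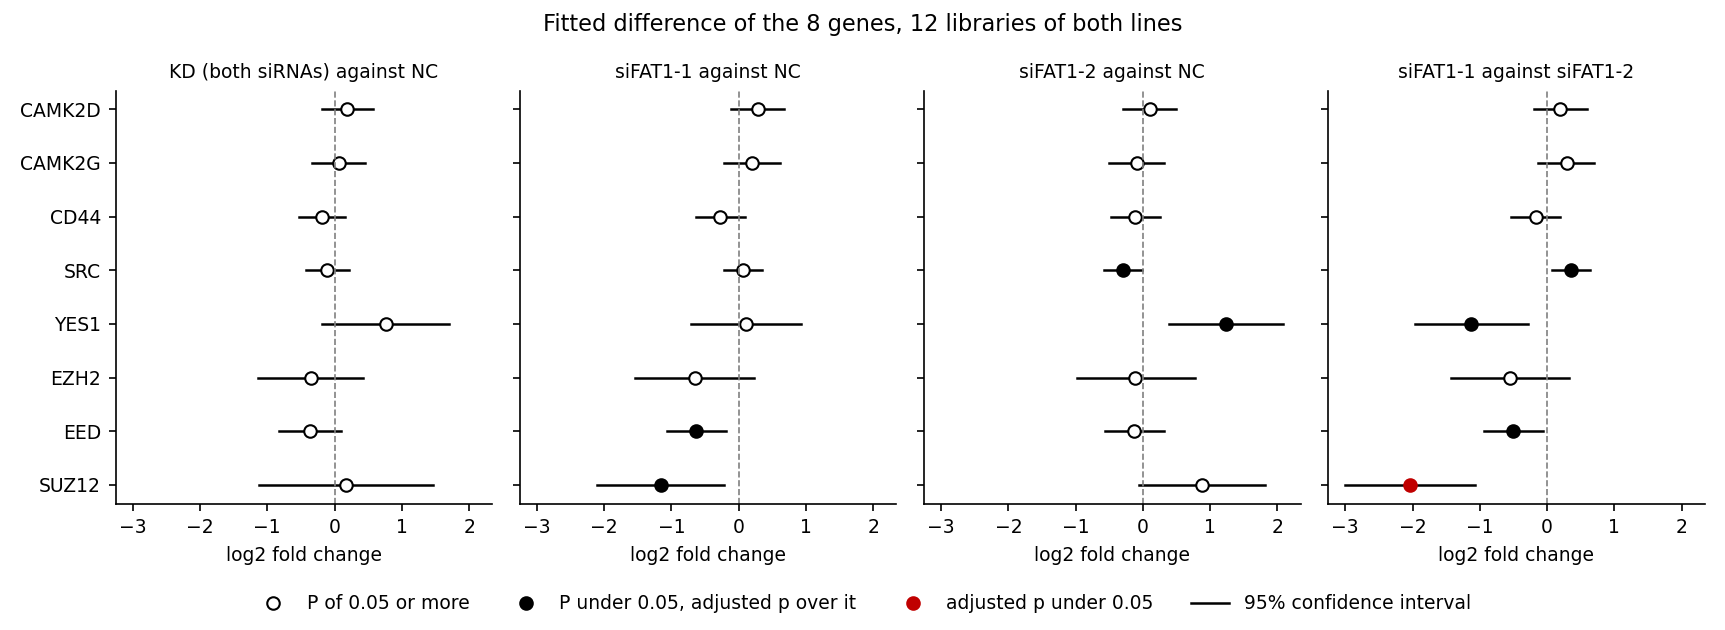
Log2 fold change of each of the 8 genes (points) with its 95% confidence interval (lines) from edgeR fits to the 12 libraries, in KD against NC, each siRNA against NC, and siFAT1-1 against siFAT1-2. All 8 intervals cross 0 in KD against NC, and the only adjusted p under 0.05 is that of SUZ12 between the siRNAs, at -2.03 (-3.00 to -1.07).

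The promoters of the 3 core subunits of PRC2 are set side by side because these genes act as 1 complex, each as a stretch of the RefSeq window that runs from 250 bases before to 50 bases after a start site (assembly GRCh38.p14). Capitals mark matches to words listed below, read on the strand of the gene. The EED window lies inside the annotated span of that gene (chr11:86201212-86278813) and not at its upstream end.

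SUZ12, chr17:31936797-31936896, + strand: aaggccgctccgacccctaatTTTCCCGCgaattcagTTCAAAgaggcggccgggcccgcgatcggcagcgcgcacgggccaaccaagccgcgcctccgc
EZH2, chr7:148884283-148884391, - strand: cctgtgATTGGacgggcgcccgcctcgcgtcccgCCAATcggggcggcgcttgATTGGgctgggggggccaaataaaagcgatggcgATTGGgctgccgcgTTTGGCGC
EED, chr11:86244653-86244752, + strand: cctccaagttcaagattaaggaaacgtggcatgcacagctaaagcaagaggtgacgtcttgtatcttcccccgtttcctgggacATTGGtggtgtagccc

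The E2F words TTTCCCGC, TTTCGCGC, TTTGCCGC and TTTGGCGC, on either strand, were in 3.31% of 35116 windows and in 2 of the 7 members that had a window, SUZ12 (TTTCCCGC, from base -189) and EZH2 (TTTGGCGC, from base 2 with the start site as base 1). The cell cycle homology region TTTGAA, on either strand, was in 15.2% of windows and in SUZ12 alone of these 7 (as TTCAAA, from base -173). CCAAT, on either strand, was in 34.6% of windows, and EZH2 held it 4 times (from bases -94, -66, -47 and -13), EED once in the stretch shown (from base -16) and SUZ12 at base -31, downstream of the stretch shown. The TEAD word GGAATG, on either strand, was in 14% of windows and in EED among the 7 (from base -1, as CATTCC), and the ZEB box CAGGTG, on either strand, was in 20.6% of windows and in CAMK2D and CAMK2G. No printed match overlapped another. Such matches describe letters, not binding.

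EZH2, the catalytic subunit, moved with the repeat more than with the siRNA. In HN6 it was at 24.2 and 41.7 CPM with NC, 23 and 31.9 CPM with siFAT1-1, and 14.7 and 55.5 CPM with siFAT1-2. In HN30 it was at 31.1 and 45.9, 17.8 and 19.5, and 17.2 and 46.4 CPM. Repeat 2 was higher than repeat 1 in all 6 conditions, the gap within siFAT1-2 was wider than any difference between the means of the arms, and in HN30 both siFAT1-1 values lay below both NC values. The repeat took 53.4% of the sum of squares of EZH2 within the lines, beside a median of 13.9% over all genes, and NC against KD took 12.1%.

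The log2 fold change of EZH2 in KD against NC was -0.35 (SE 0.36, interval -1.14 to 0.43, adjusted p = 0.688). It was -0.16 without HN30 NC repeat 2 and -0.58 without HN30 siFAT1-2 repeat 2. With the repeat as a block it was -0.41 (adjusted p = 0.509 by edgeR). siFAT1-1 gave -0.65 (interval -1.54 to 0.23) and siFAT1-2 gave -0.11 (interval -0.98 to 0.77), and the siRNAs differed by -0.55 (interval -1.43 to 0.33, adjusted p = 0.366). These wide intervals, from fits without the repeat as a block, hold both a fall and a rise.

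EZH2 is a gene of proliferating cells, and its values are therefore set beside 18 genes of S phase entry and DNA replication. In HN6 their mean level, in log2 units relative to the NC mean of the line, was -0.28 and 0.28 in NC, -0.48 and -0.32 with siFAT1-1, and -1.61 and -0.11 with siFAT1-2. In HN30 it was 0.30 and -0.30, -2.24 and -1.77, and -1.38 and -0.70. The siFAT1-2 library of repeat 1 in each line was lower on this scale than that of repeat 2, as it was for EZH2, while in HN30 NC the order of the repeats was opposite. All 18 genes had a log2 fold change under 0 in KD against NC, 12 were lower and 0 higher at an unadjusted P under 0.05, and the median was -0.92, while 1 passed after adjustment. That gene was CCNE1, cyclin E1, which fell by 2.05 on the log2 scale (SE 0.34, adjusted p = 0.0196), with an adjusted p of 0.078 without HN6 NC repeat 1 and of 0.155 without HN30 NC repeat 1. UHRF1, which keeps DNA methylation through replication, had -1.68 (SE 0.42, adjusted p = 0.0989) and MCM5, a subunit of the replicative helicase, -1.29 (SE 0.32, adjusted p = 0.102). CCNE1, UHRF1, MCM5 and MCM2 are among the genes that the study itself picked out on these libraries, so the direction of the list is not independent evidence. The part of the S phase level in the EZH2 values was not tested.

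**Figure D3:**
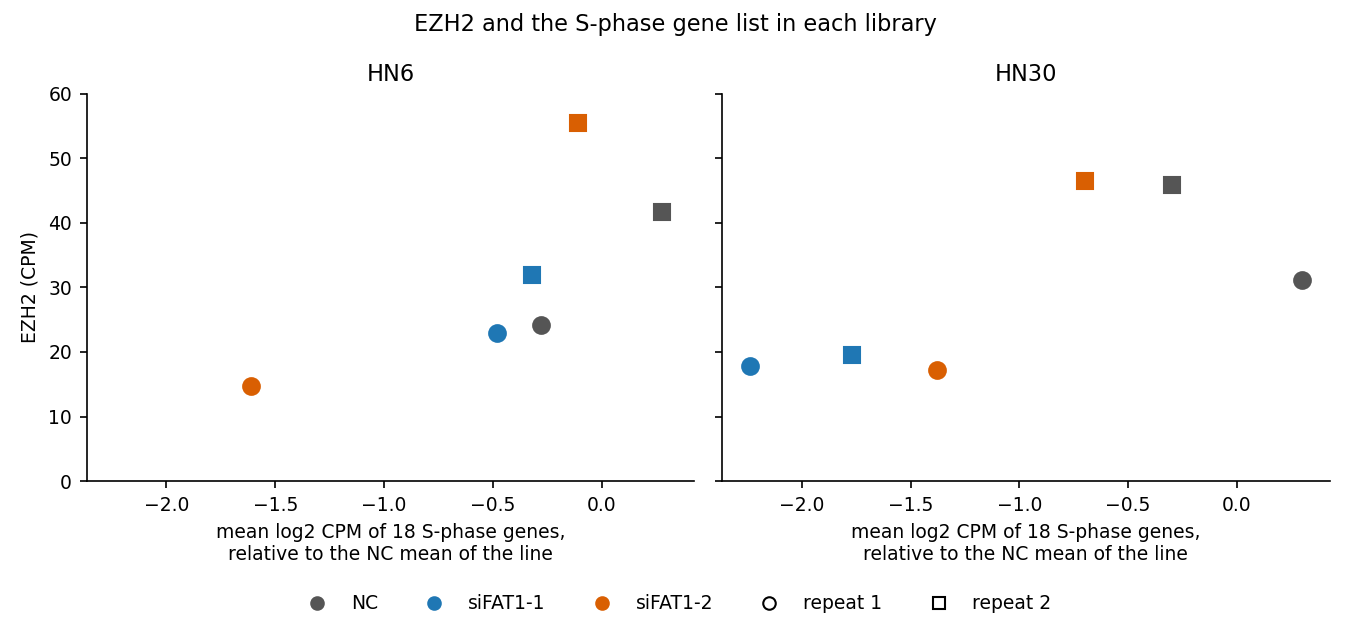
EZH2 in CPM (linear axis from 0) against the mean log2 CPM of 18 S phase genes, relative to the NC mean of the line, in the 6 libraries of HN6 (left) and of HN30 (right); colours are siRNAs and shapes repeats. In HN30 both siFAT1-1 libraries sit at the low end of both axes, at 17.8 and 19.5 CPM, and the siFAT1-2 repeats lie apart in both lines.

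EED, which binds the methylated histone tail, lay below NC in every siFAT1-1 library. In HN6 it was at 34.6 and 41.6 CPM with NC, 25.9 and 30 CPM with siFAT1-1, and 25.5 and 37.7 CPM with siFAT1-2, and in HN30 at 32.5 and 37.5, 17.1 and 22.1, and 30.3 and 39.3 CPM. The siFAT1-2 values overlapped with NC in both lines. siFAT1-1 against NC gave -0.63 (SE 0.20, interval -1.07 to -0.19) with an adjusted p of 0.12, and adjusted values ran from 0.0556 to 0.38 over the alternatives. siFAT1-2 gave -0.13 (interval -0.57 to 0.31, adjusted p = 0.703), the siRNAs differed by -0.50 (adjusted p = 0.109), and KD against NC gave -0.36 (interval -0.82 to 0.10, adjusted p = 0.465).

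SUZ12, the scaffold subunit of PRC2, had the widest spread of the 8 and opposite signs with the siRNAs. In HN6 it was at 53.9 and 8.46 CPM with NC, 15.2 and 19.7 CPM with siFAT1-1, and 79.8 and 92.4 CPM with siFAT1-2. In HN30 it was at 53.8 and 78, 26.1 and 23.2, and 86.4 and 74.4 CPM. All 4 siFAT1-1 libraries lay below all 4 siFAT1-2 libraries, and NC lay between them in HN30 repeat 1 and in HN6 repeat 1, while HN30 NC repeat 2 was within the siFAT1-2 range and HN6 NC repeat 2 was the lowest library of all. The within-line SD of its log2 CPM, 1.16, was at the 94.9th percentile of genes tested, and 60% of its sum of squares lay between the siRNAs.

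SUZ12 was 4.1-fold lower with siFAT1-1 than with siFAT1-2, a log2 difference of -2.03 (SE 0.44, interval -3.00 to -1.07, adjusted p = 0.0105 in edgeR's test). The adjusted p was under 0.05 in all 19 alternatives run, with values of -2.18 to -1.62. Against NC, siFAT1-1 gave -1.16 (interval -2.10 to -0.22, adjusted p = 0.175) and siFAT1-2 gave 0.88 (interval -0.06 to 1.82, adjusted p = 0.206). With both siRNAs pooled these cancelled to 0.17 (interval -1.13 to 1.47, adjusted p = 0.924). The contrasts with NC turned on the repeats of HN6 NC. There SUZ12 in repeat 2 was 2.66 log2 units under that of repeat 1 (3.52% of genes were at least as far apart). Without HN6 NC repeat 2, siFAT1-1 gave -1.53, siFAT1-2 gave 0.48, and KD against NC gave -0.23. Without HN6 NC repeat 1 they gave -0.87, 1.19 and 0.42. Which of these repeats is the unusual one was not tested.

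Taking each siRNA against NC, 2 of 8 members passed an unadjusted P of 0.05 with siFAT1-1 (EED and SUZ12, both lower), beside 18.8% of all genes, and 0 of 8 after adjustment by edgeR, beside 3.15%. DESeq2 and limma-voom also called 0 after adjustment there. EED alone had all siFAT1-1 values on one side of NC in both lines, 1 of 8 beside 20.5% of genes. With siFAT1-2, 2 of 8 passed the unadjusted threshold (YES1 higher and SRC lower), beside 28.4%, and the same genes were apart from NC in both lines, 2 of 8 beside 22%. After adjustment edgeR called 0 of 8, beside 11.3%, whereas DESeq2 (adjusted p = 0.0141) and limma-voom (adjusted p = 0.0397) called YES1. Directly between the siRNAs 4 of 8 passed the unadjusted threshold (SRC, YES1, EED and SUZ12), beside 33.4%, and 1 of 8, SUZ12, passed after adjustment, beside 16.8%. SRC, YES1 and SUZ12 were apart in both lines, 3 of 8 beside 33.4%. The comparisons of each siRNA with NC share the 4 NC libraries.

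The difference between the siRNAs ran with the GC content of transcripts across the whole table, and that bears on SUZ12, YES1 and SRC. Across 14257 genes with a GC value, the log2 difference of siFAT1-1 against siFAT1-2 had a Spearman rho of 0.40 with GC content. Its median was -0.49 in the 10% of genes with the lowest GC (up to 38.5%), and 0.33 in the 10% with the highest (from 62.4%). SUZ12 (38.2%) and YES1 (37.4%) are in the lowest class, and SRC, at 59.3%, is on the GC-rich side. Between repeat 2 and repeat 1 of a condition, rho was 0.42 in HN6 NC (median -1.28 in the lowest class), where both SUZ12 and YES1 were low in repeat 2. In the other conditions it ran from -0.37 (HN6 siFAT1-1) to 0.00, with -0.24 in HN30 NC and -0.14 in HN6 siFAT1-2. For siFAT1-2 against NC rho was -0.46, and for siFAT1-1 against NC it was -0.05. Genes in a library share its preparation, so no p is given for these values.

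When a smooth trend with GC content was taken out of each library, SUZ12 remained lower with siFAT1-1 than with siFAT1-2, by a log2 difference of -1.62 (adjusted p = 0.0052). YES1 with siFAT1-2 against NC then had 0.81 in place of 1.24 (adjusted p = 0.0453), and between the siRNAs -0.66 (adjusted p = 0.0611). The difference of SRC between the siRNAs went from 0.36 to 0.09 (adjusted p = 0.578), and its difference between siFAT1-2 and NC to -0.02. Beyond these fits, the part of GC content in the results was not tested.

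**Figure D4:**
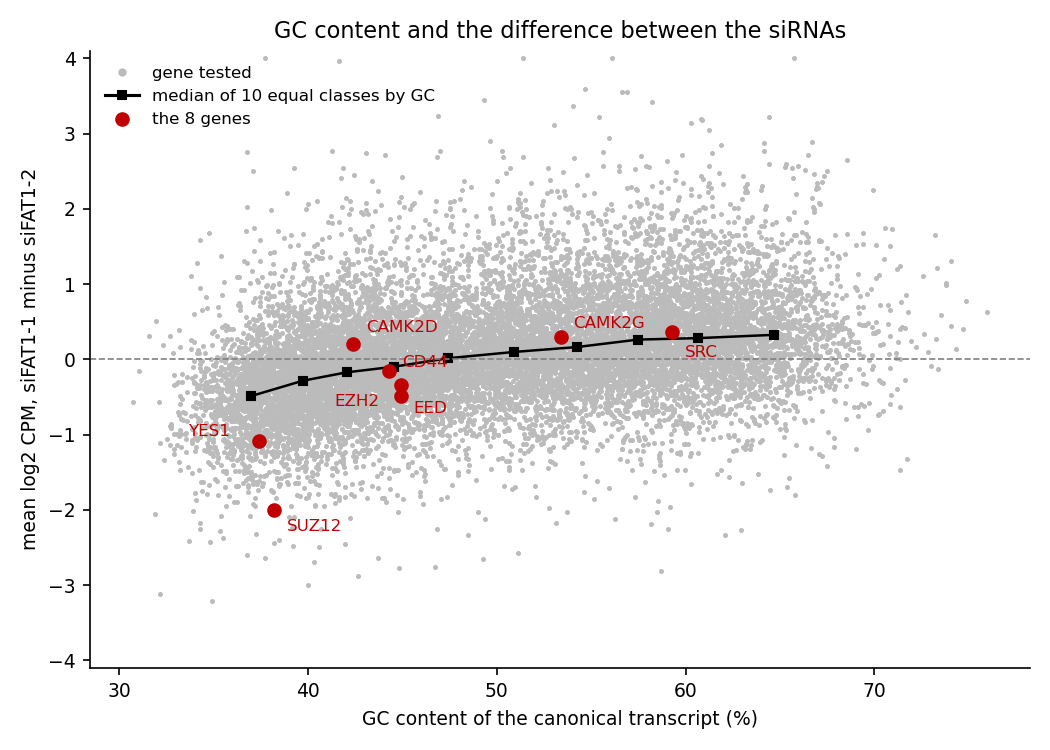
Difference in mean log2 CPM between siFAT1-1 and siFAT1-2 (vertical axis, clipped at 4) against the GC content of the canonical transcript for 14257 genes (grey), with the medians of 10 equal classes of genes by GC (black squares) and the 8 genes (red). The medians climb from -0.49 to 0.33, and SUZ12 and YES1 lie under the median of the lowest class.

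Within each line alone, FAT1 KD against NC gave 0 of 8 at an unadjusted P under 0.05 in HN6, beside 5.72% of genes, and 0 of 8 in HN30, beside 9.3%, in edgeR's test, where neither fit called any gene after adjustment. Log2 fold changes ran from -0.32 (EED) to 1.33 (YES1, which was 0.64 without HN6 NC repeat 2 and 2.72 without HN6 NC repeat 1) in HN6 and from -0.61 (EZH2) to 0.28 (YES1) in HN30. The signs of SUZ12 differed, at 0.76 in HN6 (interval -1.40 to 2.93) and -0.33 in HN30 (interval -1.62 to 0.96). A test of the difference between the lines, however, gave -1.06 (interval -3.67 to 1.55, adjusted p = 1). The HN6 value of SUZ12 was -0.03 without NC repeat 2 and 2.66 without NC repeat 1. Of the 8, 0 had an unadjusted P under 0.05 for that interaction, beside 2.21% of genes.

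The other subunits of PRC2 and the enzymes that act beside or against it, 15 genes tested, had 2 higher and 2 lower at an unadjusted P under 0.05, 0 after adjustment and a median of 0.11. PHF19, which guides PRC2 to its targets, had -0.99 (SE 0.29, adjusted p = 0.152) and DNMT1, the maintenance DNA methyltransferase, had -0.70 (SE 0.25, adjusted p = 0.229). KDM6B, which removes the mark that EZH2 sets, had 0.77 (SE 0.33, adjusted p = 0.322), and EZH1, the alternative catalytic subunit, had 0.11 (SE 0.19, adjusted p = 0.817). PHF19 in HN6 was at 49.7 and 70.9 CPM with NC, 31 and 33.3 CPM with siFAT1-1 and 16.5 and 49.7 CPM with siFAT1-2. Of 19 PRC1 genes, 1 was higher and 2 lower, 0 after adjustment, with a median of -0.01. The leading gene was PHC2, a Polyhomeotic subunit, at -0.74 (SE 0.16, adjusted p = 0.0659), with 236 CPM in both HN6 NC libraries and 94.1 to 134 CPM in the HN6 knockdown libraries. YAF2 had 0.62 (SE 0.25, adjusted p = 0.283) and CBX7 had -0.52 (SE 0.24, adjusted p = 0.342).

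At the far end of the axis, 22 tested genes around YAP1, ZEB1 and SOX2 had 3 higher and 3 lower at an unadjusted P under 0.05, 0 after adjustment and a median of -0.01. YAP1, the transcriptional effector of the Hippo pathway, had -0.02 (SE 0.17, adjusted p = 0.972) and ZEB1, a repressor of epithelial genes, 0.41 (SE 0.56, adjusted p = 0.768). SOX2 had too few counts to be tested. TEAD4, a DNA-binding partner of YAP1, had -0.86 (SE 0.24, adjusted p = 0.13), EPCAM, an epithelial adhesion molecule, 0.64 (SE 0.20, adjusted p = 0.178), and LATS2, a kinase that restrains YAP1, -0.56 (SE 0.18, adjusted p = 0.182).

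**Figure D5:**
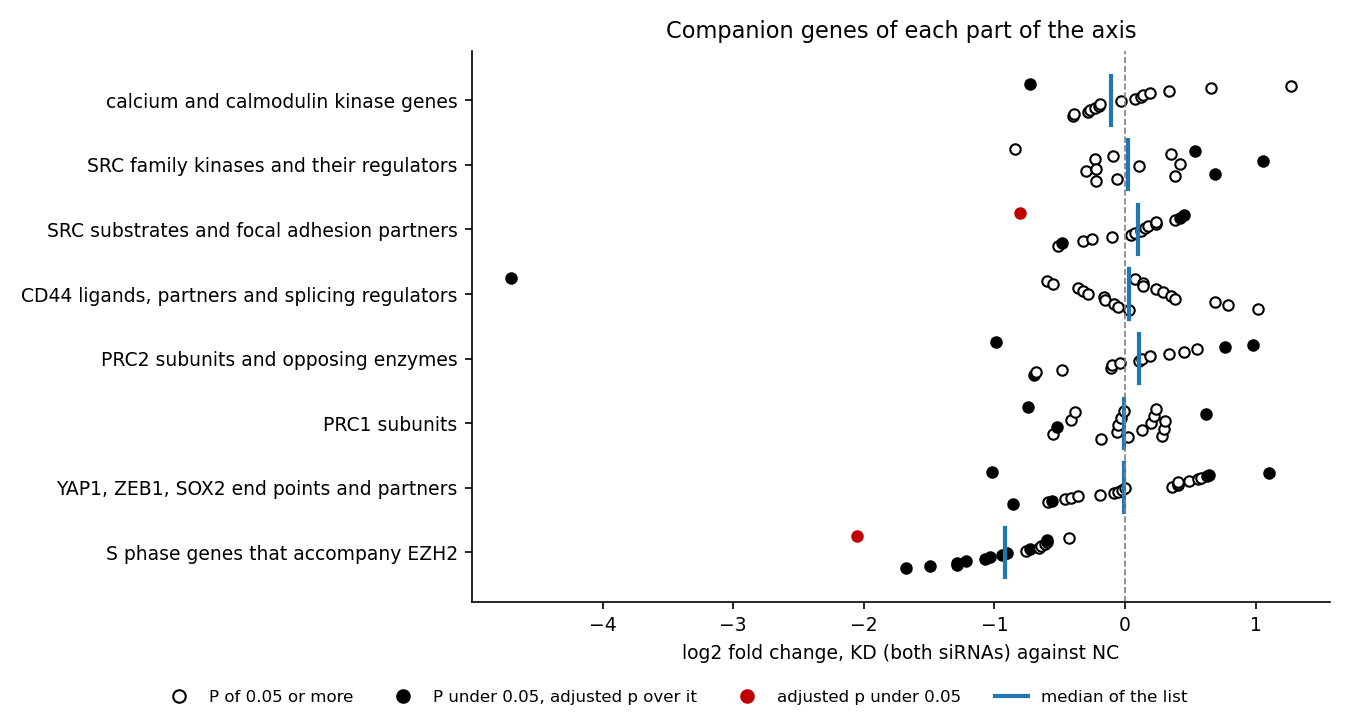
Log2 fold change in KD against NC of every tested companion gene in 8 lists (rows), filled by test result, with the median of each list in blue. The other medians lie between -0.11 and 0.11 and that of the S phase genes lies at -0.92, and PXN and CCNE1 are the genes with an adjusted p under 0.05.

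Some members moved in step across the 12 libraries. YES1 and SUZ12 had a Pearson r of 0.87 and EZH2 and EED one of 0.79, on log2 CPM centred in each line. SRC ran against both YES1 (-0.86) and SUZ12 (-0.88), and CAMK2G against CD44 (-0.83), while EZH2 and SUZ12, partners in one complex, had 0.09. These are descriptions over libraries that share siRNAs, times and the GC trend above, with no p.

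Across all genes tested, the patterns most like each member by the same r over 12 libraries were those of FOXH1 and GLIPR1 for CAMK2D (0.920 and 0.875), CIDEB and RAET1E for CAMK2G (0.961 and 0.950), and CNN1 and FOS for CD44 (0.934 and 0.926). For SRC they were LRP5 and MED25 (0.955 and 0.944), for YES1 USP45 and SLC35A3 (0.995 each), and for SUZ12 ZNF131 and CWF19L2 (0.986 and 0.982). EZH2 was closest to ABHD10 and to CCNA2, the cyclin of S phase and G2 (0.978 and 0.973), and EED to ZBTB9 and GSG2 (0.967 and 0.955). In GC content the nearest genes were close to YES1 (34.8% and 36.1%), SUZ12 (40.5% and 39.3%) and SRC (62.9% and 65.4%). They were not close to CD44 (59.5% and 52.8%) or EED (52.7% and 53.9%). For CAMK2D, at 42.4%, they lay on both sides (64.4% for FOXH1 and 35.9% for GLIPR1). For CAMK2G, at 53.4%, they were at 52.9% and 47.8%, and for EZH2, at 44.9%, at 37.7% and 41.9%.

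In the GENCODE annotation of GRCh38 the members lie on 7 chromosomes as single loci: CAMK2D at chr4:113418054-113761927, CAMK2G at chr10:73812501-73874591, CD44 at chr11:35138882-35232402, SRC at chr20:37344685-37406050, YES1 at chr18:721588-812546, EZH2 at chr7:148807257-148884321, EED at chr11:86201212-86278813 and SUZ12 at chr17:31937007-32001038. Exons of CAMK2G, CD44, YES1 and EED overlap noncoding genes on the other strand over 63 to 221 bases, and the strand setting of the counting is not given in the sources used here. YES1, EZH2, EED and SUZ12 have pseudogene copies (YES1P1, EZH2P1, EEDP1 and SUZ12P1), whose reads the counting could have split or dropped, so the levels of these members carry that uncertainty.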

How the data were processed

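Poly(A) RNA of the 12 libraries was sequenced in pairs on an Illumina NovaSeq. The authors removed poly-N, duplicate and low-quality reads, mapped to hg38 and deposited raw read counts per gene symbol. HISAT2 and featureCounts stand in the submitters' processing notes without versions, and the annotation and strand setting are not given in the sources used here. The removal of duplicate reads can lower the counts of very abundant genes such as CD44.

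Groups were taken from the sample labels. Counts were TMM-scaled and tested with edgeR 4.0.16 (R 4.3.3, quasi-likelihood, Benjamini-Hochberg over all genes tested) with cell line as a term. KD was tested against NC in 1 fit, and the siRNAs were tested in another as 3 levels. Genes entered by edgeR's expression filter with a minimum count of 10: 14360 in fits of all libraries, 13626 in HN6 and 13602 in HN30. CPM are TMM-scaled, and log2 CPM used a prior count of 2. The fits were checked on simulated data. limma 3.58.1 (voom), DESeq2 1.42.0, other size factors, no expression filter, no cell line term, the 6 conditions as groups, the repeat as a block and leaving out each library were alternatives. A correction for GC content (a smooth trend of span 0.3 per library, relative to the mean of its cell line) was added after seeing the data.

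Repeats of a condition differed by more than counting noise (chi-square per degree of freedom 14 to 231 over genes). The repeats are separate times in the labels and so pair libraries within a line, with correlations of deviations from the group means of 0.08, 0.216 and 0.221 in HN6 and of -0.0312, 0.393 and -0.0252 in HN30.

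Transcript lengths and GC content came from GENCODE v44 (canonical transcripts), matched by symbol or, for 739 of the 19225 genes, by a RefSeq synonym, with 208 unmatched, and GC content was known for 99.3% of genes tested. Promoter windows came from RefSeq. The genes and lists were chosen with earlier results of these data known. In each list the text names the 3 genes with the smallest P for KD against NC, always with EZH1, YAP1, ZEB1, SOX2, CAMK2N1 and CSK, and for each member the 2 genes with the highest r. A gene that the rule names in the calcium list is not reported here. MCM2 was named after its values were seen.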

Additional observations from a re-analysis of the deposited data

Results flagged for a closer look

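SUZ12 met the rule for a difference between groups under the same contrast. Tested directly, the log2 difference of siFAT1-1 against siFAT1-2 was -2.03 (SE 0.44, adjusted p = 0.0105 by edgeR), and the difference from NC was -1.16 with siFAT1-1 and 0.88 with siFAT1-2. All 4 siFAT1-1 libraries lay below all 4 siFAT1-2 libraries. The GC content of SUZ12 (38.2%) and the GC trend between the siRNAs stand beside this value, which was -1.62 with the trend taken out.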

How the results depend on the processing

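The count of members with an adjusted p under 0.05 stayed at 0 in KD against NC, within HN6, within HN30 and for the interaction under all alternatives run, left-out libraries included. For siFAT1-2 against NC it was 0 by edgeR and 1 (YES1) without the expression filter, by limma-voom, by DESeq2, with the GC correction and with the GC correction and the replicate block, and 0 to 1 as libraries were left out. For siFAT1-1 against NC it was 0 to 1 with libraries left out (SUZ12 without HN6 NC repeat 2). Between the siRNAs it was 1 by edgeR and 3 by DESeq2 (SRC, YES1 and SUZ12), and 1 to 2 with libraries left out (YES1 joined without HN6 NC repeat 2, EED without HN6 siFAT1-2 repeat 1). For HN30 against HN6 it was 2, and 4 with the GC correction, which added YES1 (0.64, adjusted p = 0.00866) and SUZ12 (0.61, adjusted p = 0.0476). That correction was made within each line, so it leaves any GC trend between the lines in place. The replicate block, which pairs the repeats of a line by time, changed no count of members (1 between the siRNAs, where SUZ12 had an adjusted p of 0.0173), and the call it ended was that of FAT1.

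Of 1136 values of the members under 9 alternatives and 12 left-out libraries, 1064 kept their direction and their side of the threshold, 15 crossed to an adjusted p under 0.05 and 57 turned direction, the largest of these at 0.39 in size and 0 with an adjusted p under 0.05. In KD against NC, SUZ12 turned to -0.13 with the 6 conditions as groups, and with the GC correction, without and with the replicate block, to -0.07 and -0.02, while SRC turned to 0.03 in both and YAP1 to 0.00 with RLE size factors and DESeq2. With the GC correction, without and with the block, siFAT1-2 against NC turned to -0.07 and -0.05 for CAMK2D and to 0.13 and 0.13 for CAMK2G, and SRC turned to 0.14 within HN6 and to -0.16 for the interaction, in both fits. By limma-voom CAMK2G within HN30 turned to -0.01. The cause of these turns was not tested.

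With libraries left out in turn, KD against NC ran from -0.09 to 0.19 for CAMK2G, -0.23 to 0.42 for SUZ12, -0.36 to 0.08 for CAMK2N1, -0.05 to 0.24 for EZH1 and -0.13 to 0.10 for YAP1. siFAT1-1 against NC ran from -0.22 to 0.38 for YES1. siFAT1-2 against NC ran from -0.02 to 0.25 for CAMK2D, -0.23 to 0.04 for CAMK2G, -0.23 to 0.02 for CD44, -0.49 to 0.15 for EZH2 and -0.27 to 0.01 for EED. Within HN6 the range was -0.17 to 0.61 for CAMK2D, -0.19 to 0.55 for CAMK2G, -0.50 to 0.08 for CD44, -0.24 to 0.03 for SRC, -0.49 to 0.39 for EZH2 and -0.03 to 2.66 for SUZ12, and within HN30 it was -0.08 to 0.13 for CAMK2G, -0.40 to 0.25 for CD44 and -0.14 to 0.01 for SRC. The interaction ran from -0.33 to 0.41 for CAMK2D, -0.53 to 0.24 for CAMK2G, -0.15 to 0.49 for CD44, -0.10 to 0.21 for SRC and -0.24 to 0.16 for EED, and HN30 against HN6 from -0.16 to 0.02 for CAMK2G and -0.37 to 0.12 for EZH2. Where a left-out library leaves a condition with 1 sample, that sample is assumed to vary like the others. The members had 273 reads or more in every library.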
